A study of Mus musculus with 4 samples.

Results

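The genes of the TGF-beta and BMP pathway were followed across 4 skin arrays. They were chosen by gene symbol alone: Bmp, Gdf or Smad with a number and at most 1 final letter, the TGF-beta ligands and their receptors, Inhba, Inhbb, Fst, Nog, Chrd, Grem1, and symbols starting with Acvr or Bmpr. The rule found 47 genes with 83 probes, of 19057 genes with 34885 probes named on the array. Of these 47 genes, 28 had 1 probe and 19 had several, and each gene was read from its brightest probe. Smad4, Inhbb, Gdf7 and Gdf15 had no named probe and were not analysed here. The rule also took Bmp1, a metalloproteinase that trims procollagen, and Bmp2k, a protein kinase, which are not ligands in spite of their names.

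Punch biopsies 5 mm wide came from skin of C57Black6/J mice, either wild-type or lacking the BLT2 receptor. Unwounded skin gave the groups WT and BLT2KO, and skin collected 2 days after punching gave WT_punched and BLT2KO_punched. The Ltb4r2 gene encodes BLT2, through which leukotriene B4 and related lipids signal. Each group was 1 pool of RNA from 3 mice on 1 Illumina MouseWG-6 BeadChip array, which leaves the variation among mice unknown. The labels do not give the age or sex of the mice or how the allele was made.

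Ligands of this family bind pairs of type I and type II receptors, which are serine/threonine kinases. TGF-beta and activin receptors phosphorylate SMAD2 and SMAD3, BMP receptors phosphorylate SMAD1, SMAD5 and SMAD9, and both kinds of SMAD enter the nucleus with SMAD4. Secreted antagonists such as noggin, chordin and gremlin bind BMPs, follistatin binds activin, and the inhibitory SMAD6 and SMAD7 dampen the signal inside the cell. In skin, BMPs are known for holding hair follicles at rest and for hair shaft differentiation, and TGF-beta1 and activin A are known as wound-induced ligands.

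The RefSeq promoters (GRCm38.p6, 250 bases before to 50 after the gene start) of the 5 pathway genes that passed 2-fold in any comparison are shown, since the results below turn on them. All are written 5′ to 3′ on the gene's strand. Capitals mark the letters CAGAC or GTCTG (a box bound by SMAD3 and SMAD4), GGCGCC (a GC-rich box bound by SMAD1 and SMAD5) and TGAGTCA or TGACTCA (an AP-1 site), searched on both strands, and none of these matches overlapped.
Inhba (chr13:16011601-16011900, plus strand): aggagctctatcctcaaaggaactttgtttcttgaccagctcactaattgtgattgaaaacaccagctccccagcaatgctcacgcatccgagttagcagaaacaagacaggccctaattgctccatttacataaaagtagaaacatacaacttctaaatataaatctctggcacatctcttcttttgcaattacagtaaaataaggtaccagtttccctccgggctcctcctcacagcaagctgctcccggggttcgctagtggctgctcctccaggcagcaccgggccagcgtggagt
Tgfb1 (chr7:25686752-25687051, plus strand): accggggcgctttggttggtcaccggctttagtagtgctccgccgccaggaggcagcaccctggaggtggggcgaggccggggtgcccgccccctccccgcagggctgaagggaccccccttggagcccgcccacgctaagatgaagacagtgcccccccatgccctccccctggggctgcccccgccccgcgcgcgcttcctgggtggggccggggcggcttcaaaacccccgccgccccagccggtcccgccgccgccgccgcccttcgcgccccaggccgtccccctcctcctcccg
Grem1 (chr2:113758599-113758898, minus strand): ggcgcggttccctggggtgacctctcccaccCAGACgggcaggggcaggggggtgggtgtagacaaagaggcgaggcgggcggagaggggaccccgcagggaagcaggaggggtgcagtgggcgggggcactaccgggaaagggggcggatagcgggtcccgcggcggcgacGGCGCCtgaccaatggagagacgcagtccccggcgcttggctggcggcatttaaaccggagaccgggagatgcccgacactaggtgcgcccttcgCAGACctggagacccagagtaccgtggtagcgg
Bmpr1a (chr14:34502497-34502796, minus strand): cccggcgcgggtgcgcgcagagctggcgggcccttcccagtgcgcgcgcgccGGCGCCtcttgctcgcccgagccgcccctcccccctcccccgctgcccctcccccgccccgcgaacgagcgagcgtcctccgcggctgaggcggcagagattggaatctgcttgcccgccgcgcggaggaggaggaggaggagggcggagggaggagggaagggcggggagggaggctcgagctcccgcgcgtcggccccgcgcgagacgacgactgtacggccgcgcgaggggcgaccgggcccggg
Bmp8a (chr4:123343203-123343502, minus strand): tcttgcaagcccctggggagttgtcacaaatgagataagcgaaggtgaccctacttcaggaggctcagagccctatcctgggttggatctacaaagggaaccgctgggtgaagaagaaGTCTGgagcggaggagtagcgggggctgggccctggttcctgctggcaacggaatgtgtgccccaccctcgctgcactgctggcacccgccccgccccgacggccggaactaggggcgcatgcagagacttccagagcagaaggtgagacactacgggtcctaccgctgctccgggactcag
The Grem1 window held 2 CAGAC boxes and 1 GGCGCC box, the Bmpr1a window 1 GGCGCC box and the Bmp8a window 1 GTCTG. The windows of Inhba and Tgfb1 held none of these letters, and GC content ranged from 47.7% in Inhba to 79.3% in Bmpr1a, against a median of 52.7% over all promoters. Among all 32851 promoters in the table, 49.6% held CAGAC or its reverse, 11.9% GGCGCC and 5.20% the AP-1 letters. Of the 32 pathway genes with a promoter in the table, some with several start sites, 15 held CAGAC or its reverse, 11 GGCGCC and 0 the AP-1 letters. Such matches describe the letters only.

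Values are log2 levels after background correction, an offset of 16 and quantile normalization, and a fold is between 1 array and 1 array. A gene counted as detected on an array at a detection p-value under 0.01, and was compared where 1 or both of the arrays in question detected it. With detection on only 1, its fold is a bound ("at least"), set against its own value on the other array or, if that was lower, the dimmest detected probe there. No comparison has replicates, so there are no tests or p-values. "Higher" and "lower" describe these arrays only. From pairs of probes of the same gene, the SD of a single probe's log2 ratio was 0.26 in both wound comparisons. It was 0.21 between unwounded genotypes and 0.18 between punched genotypes. This single-probe SD is only a part of the technical error, and the difference between the probes of a pair spreads more widely than it.

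Between 36.2% and 38.0% of the 45281 probes were detected on each array. Undetected probes had a median intensity of 65.1 on WT and 63.9 on BLT2KO but 93.3 on WT_punched and 89.3 on BLT2KO_punched. Of 6 keratinocyte markers, 5 were detected on all 4 arrays, and the Dsg3 probe on none; all 6 fibroblast markers were detected on all 4. The loss of Ltb4r2 could not be checked, since the annotation pairs no probe with it. With punching in WT, 1.94% of all measured genes passed 2-fold upward and 1.48% downward. Median scaling in place of quantiles turned this split to 3.84% and 0.819% and moved the median log2 ratio of all genes from 0.03 to 0.25. The 4 comparisons share arrays pairwise, so they are not independent of each other.

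Of the 47 pathway genes, 34 (72.3%) were detected on at least 1 array, against 57.3% of all named genes. Detection on all 4 arrays held for 27, and 7 were detected on some arrays only. The 13 detected on no array were the ligands Bmp2, Bmp5, Bmp6, Bmp8b, Bmp10, Gdf2, Gdf6 and Gdf11, the antagonist Nog, the receptors Acvr1c and Acvr2a, and Smad7 and Smad9. For these no level or ratio is given. Of the 34, 15 reached 1.5-fold in at least 1 comparison and 5 reached 2-fold. The share of all genes that did so in any comparison was not counted, so these counts only say which genes are given in full. Shares for each comparison are given below.

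**Figure D1:**
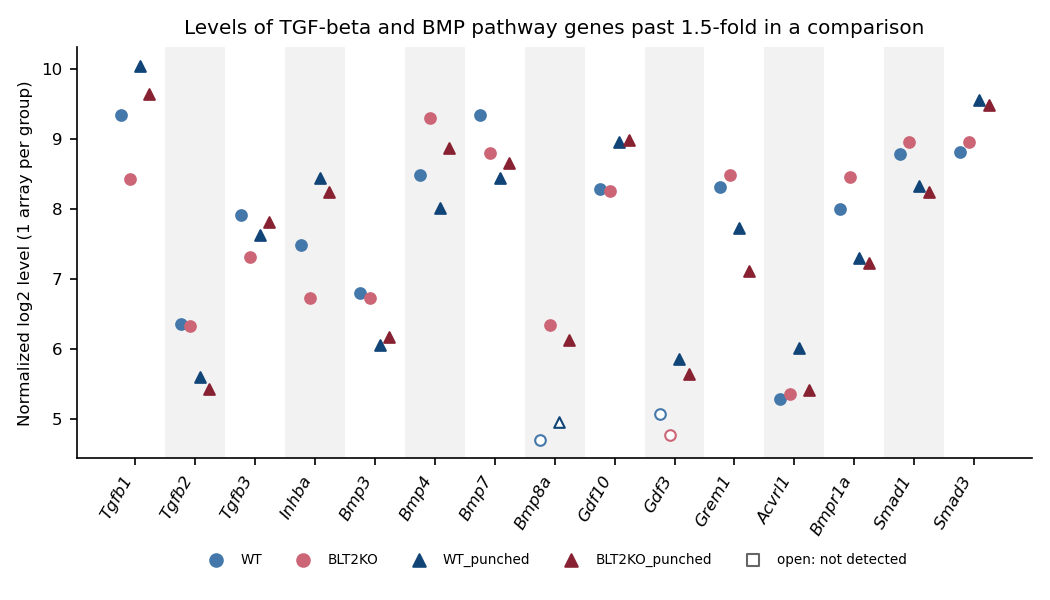
Normalized log2 levels (vertical axis) of the 15 pathway genes that reached 1.5-fold in any comparison, grouped by role; each point is 1 array of a pool, circles are unwounded and triangles punched skin, and open points were not detected. Tgfb1 and Inhba are lowest on BLT2KO and highest on WT_punched, and Bmp8a is detected on the BLT2KO and BLT2KO_punched arrays only.

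With punching, the ligands Inhba and Tgfb1 had higher levels in both genotypes, and the receptor gene Bmpr1a and the antagonist gene Grem1 had lower ones. In BLT2KO skin these 4 genes passed 2-fold, 2 in each direction. In WT skin 0 of 32 pathway genes passed 2-fold in either direction, where 1.94% of 10382 genes did so upward and 1.48% downward. With median scaling, 3 (Inhba, Tgfb1 and Smad3) passed it upward in WT. The highest and lowest log2 ratios were 0.95 for Inhba and -0.89 for Bmp7. In BLT2KO skin, 2 of 33 measured pathway genes passed 2-fold upward and 2 downward, where 3.10% and 1.71% of 10587 genes were. At 1.5-fold, 6 of 32 were higher and 5 lower in WT, where 7.47% and 6.57% of 10382 genes were, and 3 of 33 were higher and 4 lower in BLT2KO, where 8.17% and 7.63% were. The median log2 ratio of the pathway genes was 0.03 in WT and 0.07 in BLT2KO, against 0.03 and 0.00 over all genes, and 18 of 32 were above 0 in WT and 18 of 33 in BLT2KO.

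Inhba, which encodes the subunit of activin A, had a log2 level of 7.49 on WT, 6.73 on BLT2KO, 8.44 on WT_punched and 8.24 on BLT2KO_punched. Both punched arrays lay above both unwounded arrays, and BLT2KO was the lowest. The share of all genes with arrays separated by wound state was not counted, here or for the genes below. Punching went with a 1.93-fold higher level in WT skin and, in BLT2KO, a 2.85-fold higher one, the latter at rank 141 from the top of 10587 genes. Its deposited intensities, not scaled between arrays, were 206, 150, 443 and 412 in the order WT, BLT2KO, WT_punched, BLT2KO_punched.

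Tgfb1, the ligand best known from wounds and platelets, was at 9.33 on WT, 8.42 on BLT2KO, 10.04 on WT_punched and 9.64 on BLT2KO_punched. The arrays had the same order as for Inhba, with BLT2KO lowest and WT_punched highest. The ratio with punching was 1.64-fold in WT and 2.34-fold in BLT2KO (rank 224 from the top). Deposited intensities were 587, 378, 1215 and 978 in the same array order.

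Summed neutrophil and endothelial marker levels both had the order of arrays seen for these 2 ligands. Of 5 neutrophil markers named on the array, 4 (S100a8, S100a9, Cxcr2 and Csf3r) were detected on all 4 arrays and the Mmp8 probe on none. Their summed log2 level was 13.60 on WT, 12.12 on BLT2KO, 14.34 on WT_punched and 14.21 on BLT2KO_punched. Macrophage markers, with 4 of 5 detected on all arrays, had summed log2 levels of 11.95, 11.70, 12.20 and 11.86. The 4 endothelial markers, of which Kdr was not detected, summed to 9.10, 8.71, 9.54 and 9.31. The part of these cells in the ratios of Inhba and Tgfb1 was not tested, and in whole skin more cells of a type cannot be told apart from more RNA per cell.

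The other TGF-beta ligands had other patterns. Tgfb2, a ligand expressed in hair follicles, was at 6.35, 6.32, 5.60 and 5.42 on WT, BLT2KO, WT_punched and BLT2KO_punched. Both punched arrays were lower, 1.68-fold in WT and 1.86-fold in BLT2KO. The size of the Tgfb2 ratios depended on the processing and their direction did not: without background correction the log2 ratios were -0.38 in WT and -0.44 in BLT2KO, and in the deposited processed values -0.32 in both, all under 1.5-fold. Tgfb3 was at 7.91, 7.31, 7.62 and 7.82, which was 1.22-fold lower with punching in WT and 1.42-fold higher in BLT2KO.

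Of 10 BMP ligands, 3 were measured with punching in WT skin, and all 3 ratios were below 0, as were 46.3% of all genes. In BLT2KO, 4 of 5 measured were below 0, as were 48.1% of all genes. Bmp7, an epithelial BMP, was at 9.34 on WT and 8.80, 8.45 and 8.65 on BLT2KO, WT_punched and BLT2KO_punched. WT skin thus stood above the other arrays, and the ratio with punching was 1.85-fold lower in WT and 1.11-fold lower in BLT2KO. With the mean of its probes the log2 ratio of Bmp7 in WT was -0.40 in place of -0.89, but the second Bmp7 probe was not detected on any array. Bmp3, an atypical BMP that opposes other BMPs, had levels of 6.80 and 6.73 in unwounded and 6.05 and 6.17 in punched skin of WT and BLT2KO. For Bmp3, punched skin was 1.68-fold lower in WT and 1.47-fold lower in BLT2KO. Without background correction the Bmp3 log2 ratios were -0.44 and -0.33, and in the deposited processed values -0.40 and -0.23, which were under 1.5-fold. Bmp4, a mesenchymal BMP of the follicle, was 1.38-fold lower with punching in WT and 1.36-fold lower in BLT2KO. Bmp15, known as an oocyte ligand, was detected on BLT2KO_punched alone, at 5.43, which was at least 1.17-fold above BLT2KO.

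Of 8 GDF ligands, 5 were measured with punching. All 5 ratios were above 0 in WT, as were 53.2% of all genes, and 4 of 5 in BLT2KO, as were 5295 of 10587 genes. Gdf10, also called BMP3b, was at 8.28 on WT and 8.25 on BLT2KO, against 8.95 on WT_punched and 8.99 on BLT2KO_punched. The 2 genotypes lay close together and the wound states apart, 1.59-fold in WT and 1.66-fold in BLT2KO. Gdf3, a ligand known from embryonic stem cells and adipose macrophages, was detected in punched skin only, at 5.85 in WT_punched and 5.64 in BLT2KO_punched. That was at least 1.54-fold and at least 1.35-fold above unwounded skin in the reported processing. Its level lay near the dimmest detected probes. Without background correction, with an offset of 50 and in the deposited processed values, its log2 ratios were 0.27, 0.36 and 0.33 in WT. In BLT2KO they were 0.18, 0.24 and 0.35, and all were under 1.5-fold. Gdf1, Gdf5 and Gdf9 stayed under 1.5-fold in each comparison in which they were measured, and Gdf5 was not detected on BLT2KO.

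**Figure D2:**
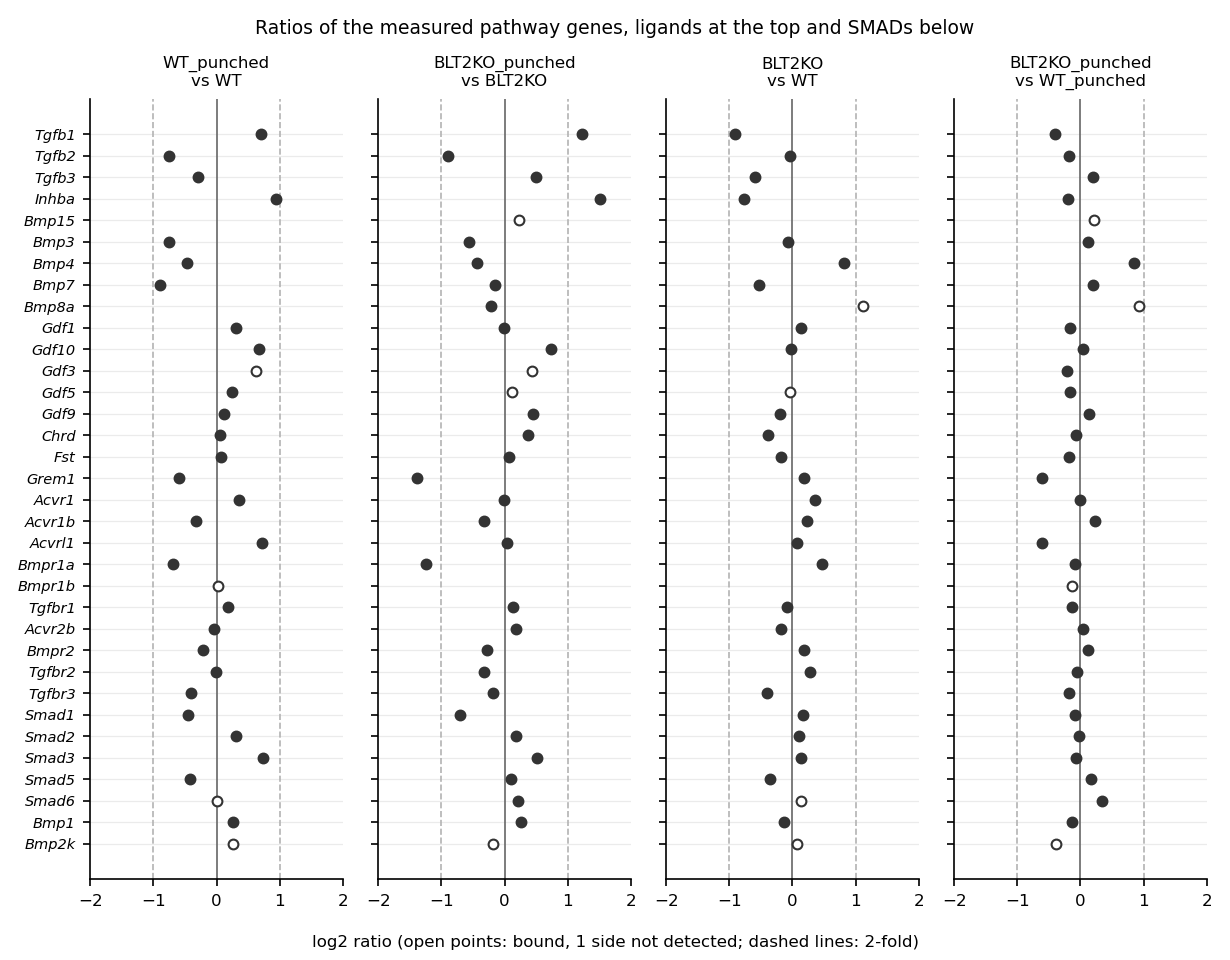
Log2 ratios (horizontal axes) of the 34 detected pathway genes in the 4 comparisons, 1 row for each gene with ligands at the top and SMADs below; open points are bounds and dashed lines mark 2-fold. Points past the dashed lines are Inhba and Tgfb1 above and Grem1 and Bmpr1a below in BLT2KO_punched against BLT2KO, and Bmp8a above in BLT2KO against WT.

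The antagonists differed from each other. Grem1, which encodes the BMP antagonist gremlin 1, was at 8.31 on WT, 8.49 on BLT2KO, 7.72 on WT_punched and 7.11 on BLT2KO_punched. Both punched arrays were below both unwounded arrays and BLT2KO_punched was the lowest, with a log2 ratio of -0.59 in WT and a 2.61-fold lower level in BLT2KO (rank 40 from the bottom of 10587 genes). Deposited intensities of Grem1 were 319, 394, 298 and 225. Fst, the activin antagonist follistatin, lay between 8.32 and 8.57 on all arrays, and Chrd, the BMP antagonist chordin, between 6.38 and 6.83.

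Type I receptors had the widest ratios among receptors. Bmpr1a, the BMP receptor that hair follicle differentiation needs in mice, was at 7.99 on WT, 8.46 on BLT2KO, 7.30 on WT_punched and 7.22 on BLT2KO_punched. Punched skin was 1.62-fold lower in WT and 2.36-fold lower in BLT2KO, with deposited intensities of 268, 388, 240 and 238. A second Bmpr1a probe read 6.32, 6.61, 6.05 and 6.10, in the same direction with log2 ratios of -0.27 and -0.51, so the size of the Bmpr1a ratio differed between its probes. Without background correction, with the mean of its probes or in the deposited processed values, Bmpr1a was under 2-fold. Acvrl1, the endothelial type I receptor ALK1, was at 5.28, 5.36, 6.01 and 5.41, highest on WT_punched alone, and its ratio with punching was 1.65-fold in WT and 1.03-fold in BLT2KO. Its level lay near the dimmest detected probes, and its log2 ratio in WT was 0.33 without background correction, 0.43 with an offset of 50 and 0.37 in the deposited processed values, all under 1.5-fold. Between punched genotypes these 3 settings gave -0.28, -0.36 and -0.29. The endothelial marker Tek was also highest on WT_punched, at 7.72 against 7.18 to 7.32 on the other arrays, while Pecam1 was at 8.58 on WT_punched and 8.41 on BLT2KO_punched. The summed log2 level of 4 endothelial markers, of which Kdr was not detected, was 9.10, 8.71, 9.54 and 9.31, and their part in the Acvrl1 ratio was not tested.

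The brightest probes of the remaining receptors stayed under 1.5-fold. Tgfbr1 lay between 10.39 and 10.66, Tgfbr2 between 11.83 and 12.16, Bmpr2 between 10.55 and 10.95, and the co-receptor Tgfbr3, or betaglycan, between 9.94 and 10.52. A dimmer Tgfbr3 probe read 6.04, 5.87 and 5.30 on WT, BLT2KO and WT_punched and was not detected on BLT2KO_punched, with a log2 ratio of -0.74 with punching in WT against -0.40 for the brightest probe. Acvr1, Acvr1b and Acvr2b, which bind activins or BMPs, had ratios of at most 1.29-fold in any comparison. Bmpr1b was detected on WT_punched alone, at 5.24, with a bound of 1.01-fold over WT.

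Among SMADs, Smad3 and Smad1 had ratios with punching of opposite direction. Smad3, which carries TGF-beta and activin signals, was at 8.81 on WT, 8.95 on BLT2KO, 9.55 on WT_punched and 9.47 on BLT2KO_punched. Punching went with a 1.67-fold higher level in WT skin and, in BLT2KO, a 1.44-fold higher one, and a second probe gave log2 ratios of 0.29 and 0.37. Smad1, which carries BMP signals, was at 8.78, 8.95, 8.33 and 8.24, so that punched skin was 1.37-fold lower in WT and 1.64-fold lower in BLT2KO, and a second probe detected on all arrays gave -0.26 and -0.55. For both genes the punched arrays did not overlap the unwounded ones, and the share of all genes separated in this way was not counted. Smad2 lay between 7.96 and 8.27 and Smad5 between 8.21 and 8.63, and the inhibitory Smad6 was at most 5.57.

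**Figure D3:**
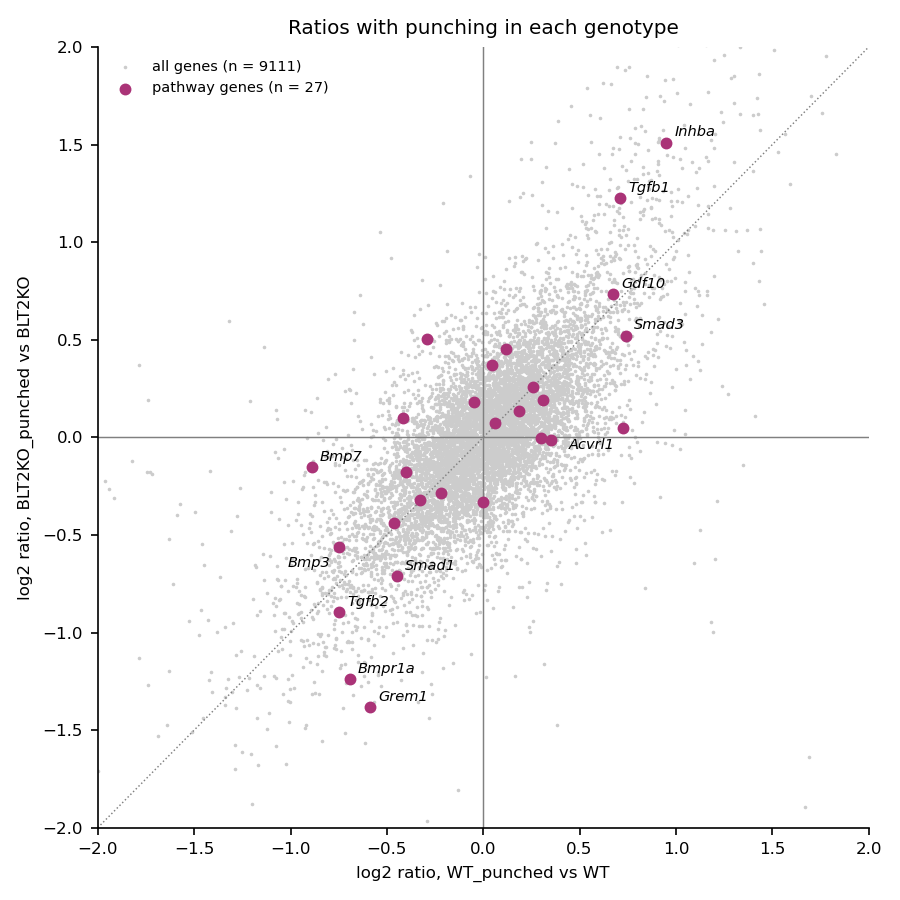
Log2 ratio with punching in WT (horizontal axis) and in BLT2KO (vertical axis) for 9111 genes detected on all 4 arrays (grey) and the 27 pathway genes among them (purple); pathway genes past 1.5-fold on either axis are named, the dotted line marks equal ratios, and 79 genes lie outside the axes. Inhba and Tgfb1 lie above the dotted line at the upper right, Grem1 and Bmpr1a below it at the lower left, and Bmp7 and Acvrl1 near 0 on the BLT2KO axis.

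The ratios with punching were then set side by side for the genotypes. Among 27 pathway genes detected on all arrays, 0 had a ratio at least 2-fold apart between genotypes in either direction, where the BLT2KO ratio was the higher by that much for 1.17% of 9111 genes and the WT ratio for 0.571%. At 1.5-fold, 2 had the higher log2 ratio in BLT2KO (Tgfb3, by 0.80, and Bmp7, by 0.74), as did 4.14% of all genes. A further 2 had the lower log2 ratio in BLT2KO, Grem1 (a difference of -0.79) and Acvrl1 (-0.68), as did 3.27% of all genes. For Acvrl1 that holds with background correction and the offset of 16, and not under the 3 settings given above. Bmp7 was less than 1.5-fold apart with the mean of probes, at log2 ratios of -0.40 in WT and -0.04 in BLT2KO. Grem1 was narrowly so in the deposited processed values, at -0.46 and -1.04. Inhba and Tgfb1 differed by 0.56 and 0.52. These differences were not tested. For Inhba and Tgfb1, the larger ratio in BLT2KO stood beside a lower unwounded level, and their punched levels were no higher in BLT2KO than in WT.

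Unwounded BLT2KO and WT skin were compared to ask what the lack of BLT2 went with before wounding. Bmp8a and Bmp4 had higher levels in BLT2KO, and Tgfb1, Inhba and Tgfb3 had lower ones. Of 31 measured pathway genes, 1 passed 2-fold upward and 0 downward, where 1.08% and 1.17% of 10235 genes were. At 1.5-fold, 2 were higher and 3 lower, where 3.37% and 4.27% of genes were. The median log2 ratio was -0.02 for the pathway and -0.01 for all genes.

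In punched skin, BLT2KO against WT, Bmp4 and Bmp8a again had higher levels in BLT2KO and Grem1 and Acvrl1 had lower ones. None of 34 measured pathway genes passed 2-fold (0 in either direction), where 1.08% of 10540 genes were higher and 0.541% lower. At 1.5-fold, 2 were higher and 2 lower, where 2.51% and 2.38% of genes were. The median was -0.07 for the pathway and -0.03 for all genes.

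Bmp8a, a BMP known from germ cells and brown fat in mice, was the pathway gene with the highest ratio between genotypes in the reported processing. Its level was 6.35 on BLT2KO and 6.13 on BLT2KO_punched, and its probe was not detected on WT (4.70) or WT_punched (4.95). BLT2KO was therefore at least 2.18-fold above WT in unwounded and at least 1.90-fold above it in punched skin. The second Bmp8a probe was likewise detected on the 2 BLT2KO arrays alone, at 5.76 and 5.57 against 4.55 and 4.43. Deposited intensities of the brighter probe were modest, at 72.6 on WT, 127 on BLT2KO, 107 on WT_punched and 150 on BLT2KO_punched. The unwounded ratio was under 2-fold without background correction, with an offset of 50, with the mean of probes and in the deposited processed values. Bmp8b, a close neighbour in sequence, had a probe that was not detected on any array, and whether the Bmp8a probes also bind its transcript was not tested.

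Bmp4 was at 8.48 on WT and 9.30 on BLT2KO, and at 8.02 on WT_punched and 8.86 on BLT2KO_punched. Within each wound state BLT2KO was the higher array, 1.77-fold in unwounded skin (rank 152 from the top of 10235 genes) and 1.80-fold in punched skin (rank 144 of 10540). Its deposited intensities were 353, 646, 350 and 597. A second Bmp4 probe was not detected on any array.

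Hair and melanocyte markers were also higher on the BLT2KO arrays. Of 6 hair shaft and matrix markers named on the array, Krt34 and Krt86 were detected on all 4 arrays, Krt31 and Hoxc13 on 3, and Lef1 and Msx2 on none. Their summed log2 level was 9.44 on WT, 13.72 on BLT2KO, 7.74 on WT_punched and 13.88 on BLT2KO_punched. Melanocyte markers, with 4 of 5 detected on all arrays, summed to 10.03, 11.35, 9.09 and 11.05. Dermal papilla markers, which mark the BMP4-producing cells at the follicle base, summed to 9.28, 8.70, 8.83 and 8.93, a sum in which Crabp1 (8.76, 7.39, 8.47 and 8.07) was the brightest on every array. Of the papilla markers measured, 4 of 6 were above 0 in BLT2KO against WT in unwounded skin and 4 of 5 in punched skin, with medians of 0.11 and 0.36. Over all genes, 47.5% and 43.5% were above 0, with medians of -0.01 and -0.03. Rspo3, Alpl, Wif1 and Corin were higher in BLT2KO in both wound states, and Corin was detected on the 2 BLT2KO arrays alone. Crabp1 went the other way, 2.58-fold lower in unwounded and 1.32-fold lower in punched BLT2KO skin, and Sox2 was detected on WT alone. The part of hair follicle state or of papilla cells in the Bmp4 and Bmp8a ratios was not tested.

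**Figure D4:**
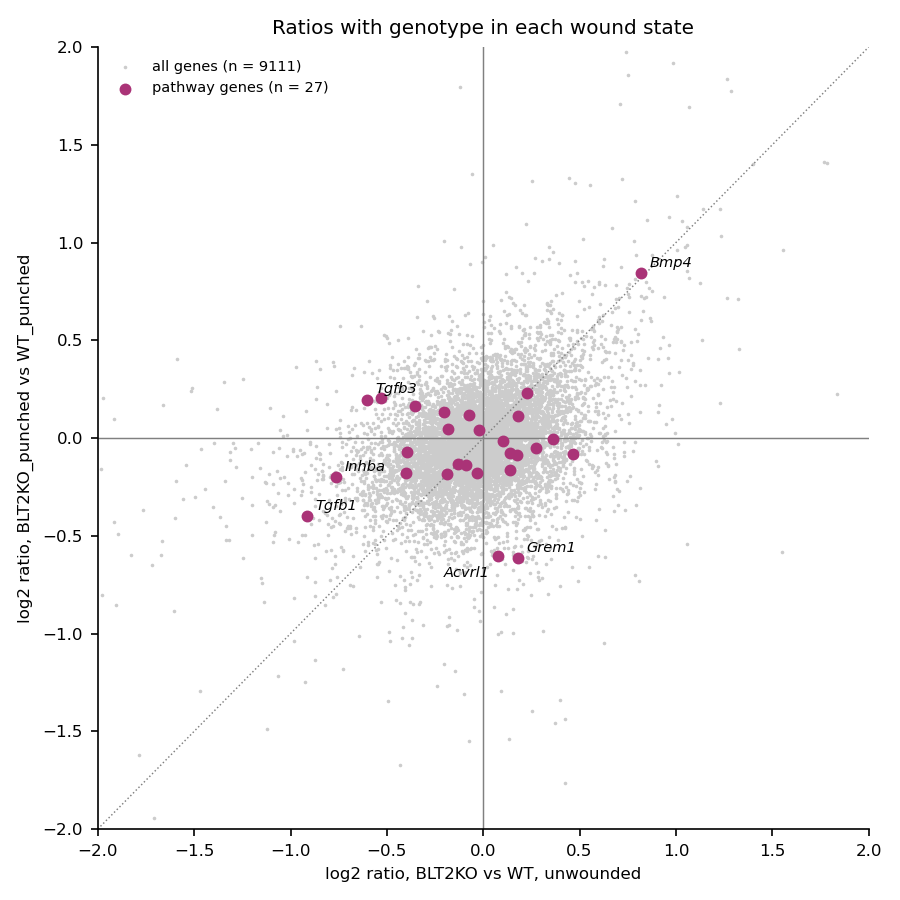
Log2 ratio of BLT2KO against WT in unwounded (horizontal axis) and in punched skin (vertical axis) for 9111 genes detected on all 4 arrays (grey) and 27 pathway genes (purple); those past 1.5-fold on either axis are named, the dotted line marks equal ratios, and 59 genes lie outside the axes. Bmp4 lies on the dotted line near 0.8 on both axes, Tgfb1, Inhba and Tgfb3 lie at the left, and Grem1 and Acvrl1 at the bottom; Bmp8a is not plotted because it was not detected on all arrays.

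On the lower side, unwounded BLT2KO skin was 1.88-fold below WT for Tgfb1 (rank 146 from the bottom of 10235 genes) and 1.52-fold for Tgfb3, and Inhba had a log2 ratio of -0.76. This Tgfb3 log2 ratio was -0.46 without background correction, -0.51 with an offset of 50 and -0.45 with median scaling. In the deposited processed values it was -0.49, and all of these were under 1.5-fold. Inhba was under 1.5-fold without background correction, at -0.53. In punched skin Tgfb1 was 1.32-fold lower, Inhba 1.15-fold lower and Tgfb3 1.15-fold higher in BLT2KO. Neutrophil markers had 4 of 4 measured log2 ratios below 0 between unwounded genotypes, as had 52.1% of all genes. Their median was -1.43 there and -0.15 between punched genotypes, against -0.01 and -0.03 over all genes. Grem1 was 1.13-fold higher in BLT2KO before wounding and 1.53-fold lower after, and Acvrl1 was 1.06-fold higher before and 1.52-fold lower after. The punched log2 ratio of Grem1 was -0.45 without background correction, -0.51 with an offset of 50 and -0.54 with median scaling. In the deposited processed values it was -0.42, and all of these were under 1.5-fold. Adipocyte markers, all 5 detected on at least 1 array, summed to 11.73 on WT, 11.55 on BLT2KO, 11.98 on WT_punched and 10.59 on BLT2KO_punched. Their sum was thus higher with punching in WT, where Grem1 was lower. Fibroblast markers summed to 13.91, 14.35, 13.44 and 13.75 in the same array order. Their sum was lower with punching in both genotypes, as Grem1 was, but higher on BLT2KO_punched than on WT_punched. Col1a1, also on the TGF-beta target list, was the brightest of the 6 on every array. Of these 6, 4 went with the sum, and Pdgfra and Pdgfrb went the other way. With punching their log2 ratios were 0.69 and 0.20 in WT and 0.43 and 0.39 in BLT2KO. Between punched genotypes they were -0.58 and -0.20. The part of either cell type in the Grem1 ratio was not tested.

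Other genes of the pathway, taken from lists of storage proteins, antagonists, regulators and targets, were read in the same way. Of the BMP targets, 8 of 10 were measured. In WT skin 0 passed 2-fold upward with punching and 3 downward, where 1.48% of all genes were that much lower, with a median log2 ratio of -0.88 against 0.03 over all genes. These were Id4, an inhibitor of helix-loop-helix factors (2.32-fold), Gata3, a factor of the inner root sheath (2.20-fold), and Dlx3, a homeobox factor of the hair shaft (2.10-fold). In BLT2KO skin, Id4 alone passed 2-fold (2.35-fold lower) and the median was 0.17. Between genotypes the BMP target median was 0.16 in unwounded skin with 0 past 2-fold, and 0.45 in punched skin, where 8 of 8 were above 0 and 2 passed 2-fold, Dlx3 (4.44-fold higher) and Msx1, a homeobox factor of the follicle (2.49-fold higher). Over all genes of this punched comparison, the median was -0.03, 43.5% were above 0 and 1.08% passed 2-fold upward.

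Dlx3 had levels of 9.19 on WT, 10.18 on BLT2KO, 8.12 on WT_punched and 10.28 on BLT2KO_punched. Msx1 was at 6.94, 7.20, 6.08 and 7.40 in the same array order. Both were lowest on WT_punched, the array with the lowest summed hair marker level, and the part of hair follicle state in these ratios was not tested. Msx2 stands on the hair list and on the BMP target list. Id1, the most used readout of BMP signalling, was at 9.87, 9.20, 8.98 and 9.33, highest on WT, which was 1.86-fold above WT_punched. Id3 lay between 7.10 and 7.64.

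Of the TGF-beta targets, 12 of 13 on the array were measured, and their medians lay between -0.15 and 0.24 in the 4 comparisons. Timp1, the metalloproteinase inhibitor, was the only target on this list at least 2-fold higher with punching, 4.12-fold in WT and 5.58-fold in BLT2KO, and it was 2.22-fold lower in unwounded BLT2KO than in WT skin. Col1a2, a chain of type I collagen, was 1.84-fold lower with punching in WT and 2.38-fold lower in BLT2KO, and it also stands on the fibroblast marker list. Ccn2, a matricellular target, lay between 11.29 and 11.70 and Tgfbi, an adhesion protein, between 12.42 and 12.76. Postn, a matricellular protein, was not detected on any array.

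**Figure D5:**
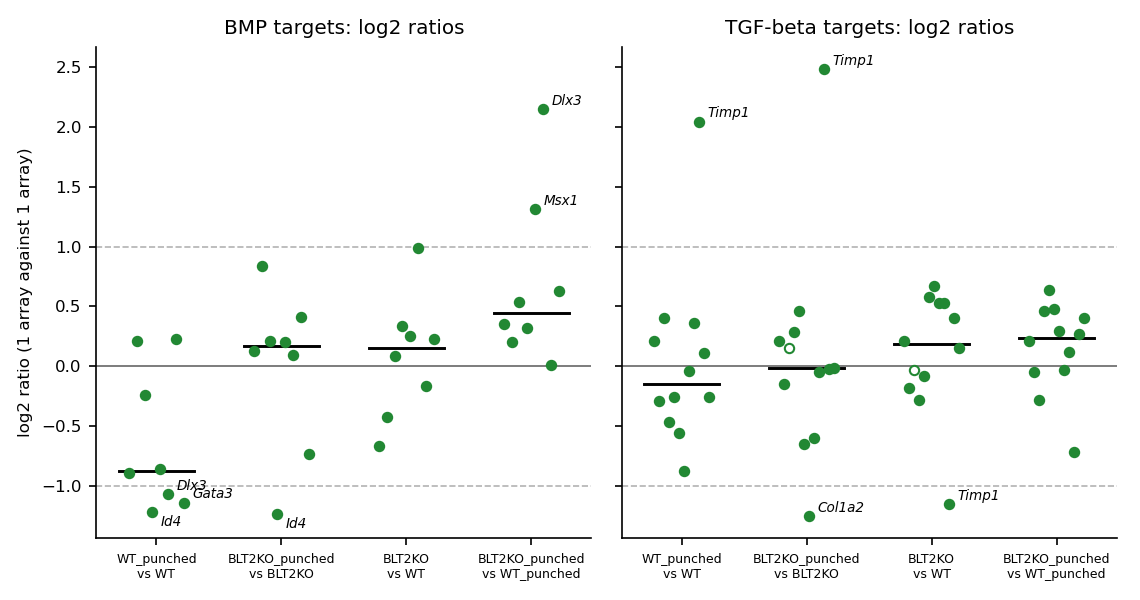
Log2 ratios (vertical axis) of the measured BMP targets (left, 8 genes) and TGF-beta targets (right, 12 genes) in the 4 comparisons; each point is a gene on 1 array against 1 array, open points are bounds, black bars are medians and dashed lines mark 2-fold. The BMP targets have a median of -0.88 with punching in WT and 0.17 in BLT2KO, and all lie above 0 between punched genotypes.

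Proteins that store or activate TGF-beta had 11 of 13 listed genes on the array. Thbs1, thrombospondin-1, which activates latent TGF-beta1, was at 6.95 on WT, 5.71 on BLT2KO, 8.28 on WT_punched and 8.58 on BLT2KO_punched. With punching it was 2.50-fold higher in WT skin and, in BLT2KO, 7.31-fold higher, and unwounded BLT2KO skin was 2.37-fold below WT, the array order of Tgfb1 apart from the punched pair. It was the only gene of this list past 2-fold. Ltbp1, which tethers latent TGF-beta to the matrix, had log2 ratios with punching of -0.77 and -0.72.

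Among 18 other antagonists and co-receptors on the array, 12 were detected on at least 1 array. Bmper, a secreted BMP-binding protein, was at 6.35 on WT and 6.48 on BLT2KO against 7.92 on WT_punched and 8.04 on BLT2KO_punched. It was 2.96-fold higher with punching in WT and 2.94-fold higher in BLT2KO, the only gene of this list past 2-fold, and the genotypes differed by at most 1.10-fold. Of 14 intracellular regulators on the array, 13 were detected and 0 passed 2-fold in any comparison. In a single comparison, 0.541% to 3.10% of all measured genes passed 2-fold in 1 direction. Of 8 other ligands, Lefty1 alone was detected, between 7.62 and 8.01.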

How the data were processed

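Per the series' design text, mixed skin RNA of 3 mice per group was amplified and hybridised to Illumina MouseWG-6 BeadChips, and BeadStudio (no version stated) gave the raw data. Per the file headers, the deposited table holds a non-normalized intensity and a detection p-value for each probe and array. Their deposited processed intensities equalled these times 1 constant per array (0.950 to 1.24). The intensities were corrected with normexp through the detection p-values (limma 3.58.1, R 4.3.3), given an offset of 16, normalized by quantiles and taken to log2. Counts and ratios used Python 3.11.15 with pandas 2.3.3, and this path was tested on simulated data. Genes came from the platform annotation, and gene IDs of 34807 of 34885 probes matched the RefSeq table of GRCm38.p6. A bound with a sign opposite to the detected side was set to 0. With 1 array per group, precision is limited by how few arrays there are. Alternatives changed the background correction, normalization, offset, detection filter, choice of probe, input values and fold threshold. The labels and headers name no slide or scan, so no block was fitted.

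The pathway genes and lists were chosen with earlier results of these data known. Pathway genes past 1.5-fold in any comparison are given on all arrays, and list genes when past 2-fold, up to 4 a list. Genes named beyond this rule (Id1, Id3, Ccn2, Tgfbi, Ltbp1, Lefty1 and the markers) were chosen after their values were seen.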

Additional observations from a re-analysis of the deposited data

Results flagged for a closer look

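Tgfb3 and Bmp7 had ratios of opposite direction in the 2 genotypes or wound states. Each ratio was larger in size, in the reported processing, than the single-probe SD given above. The difference between 2 probes of a gene spreads more widely than that SD, and the differences in direction were not tested. The log2 ratio of Tgfb3 with punching was -0.29 in WT and 0.51 in BLT2KO, and its BLT2KO against WT ratio was -0.60 in unwounded and 0.20 in punched skin. Both pairs come from the same 4 values, and the ratio in WT ranged from -0.29 to -0.05 and the punched genotype ratio from 0.15 to 0.29 over the alternatives, so both were under that SD in some of them. For Bmp7, the BLT2KO against WT ratio was -0.53 in unwounded and 0.20 in punched skin. Over the alternatives these ranged from -0.53 to -0.16 and from 0.18 to 0.30. The unwounded ratio of Bmp7 with the mean of probes, and the punched ratio without background correction, were smaller than the single-probe SD (0.21 and 0.18). That mean takes in a second Bmp7 probe that was not detected on any array.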

How the results depend on the processing

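With median scaling, the median of the pathway genes moved from 0.03 to 0.21 with punching in WT and 0.07 to 0.20 in BLT2KO. Between genotypes it moved from -0.02 to 0.11 in unwounded skin and from -0.07 to 0.01 in punched skin, changing sign in both. In each of the 4 comparisons and 7 alternatives, the medians stayed within the single-probe SD of the reported values. That SD describes 1 probe of 1 gene, so it is a wide measure for a median over many genes. Of 406 alternative values of the 15 genes given on all arrays, 355 stayed within that SD of the reported values and 51 moved by more. Part of the 355 could not move. For genes detected on all arrays, changes of the detection filter repeat the reported value. The mean of probes does the same for genes with 1 probe. Of 58 ratios of these genes, 8 changed sign in an alternative, all of them of at most 0.15 in size on the log2 scale. Counts past 2-fold are small, and single genes near the threshold moved them. With punching in WT, the reported 0 higher became 3 with median scaling. For BLT2KO_punched against BLT2KO, the 2 lower became 1 without background correction, in the deposited processed values and with the mean of probes. For BLT2KO against WT, the 1 higher (Bmp8a) became 0 under those 3 settings and with an offset of 50. Between punched genotypes, the 0 higher became 1 with a detection threshold of 0.05, with no detection filter or floor, and with median scaling. At 1.5-fold, the counts with punching were 6 higher and 5 lower in WT and 4 lower in BLT2KO. Between genotypes they were 2 higher and 3 lower in unwounded skin, and 2 higher and 2 lower in punched skin. Those 2 lower genes, Grem1 and Acvrl1, were both under 1.5-fold without background correction, with an offset of 50 and in the deposited processed values. Bmp8a ranged from 1.37-fold to 3.13-fold between unwounded genotypes over the alternatives, while Inhba (2.17 to 3.24), Tgfb1 (2.13 to 2.69) and Grem1 (2.06 to 2.61) stayed past 2-fold with punching in BLT2KO under all 7, and Bmpr1a (1.83 to 2.36) did not. Inhba, Tgfb1 and Grem1 have 1 probe each and were detected on all arrays, so the detection settings and the mean of probes could not move them. Over all genes, the share at least 2-fold higher with punching in WT ranged from 0.819% to 3.84%. No paired analysis was possible because each group is 1 array, and no array could be left out.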
